A study of Mus musculus with 6 samples.

Results

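Foxp3 is the transcription factor that defines regulatory T cells (Treg cells), the CD4 T cells by which immune responses are restrained, and the Ikaros proteins are zinc-finger transcription factors of lymphocytes that work as dimers with one another. The genes followed here were Foxp3 (Entrez ID 20371), Ikzf1 (22778, encoding Ikaros), Ikzf2 (22779, Helios), Ikzf3 (22780, Aiolos), Ikzf4 (22781, Eos) and Ikzf5 (67143, Pegasus), chosen by their symbols: 6 of the 15442 genes in the deposited gene table, with 47 of the 37757 transcripts in the transcript table. RNA came from cells sorted from mouse liver for the green fluorescence of a Foxp3 reporter. Libraries AIH 1, AIH 2 and AIH 3 were labelled as from a mouse model of autoimmune hepatitis, an immune attack on the liver, and the others were Control 1, Control 2 and Control 3, so that every library came from reporter mice. Neither the age and strain of the mice, the reporter allele, nor the way the disease was induced is given in the sources used here. Each library was amplified from lysed sorted cells by SMART-Seq2, which copies polyadenylated RNA into full-length cDNA, and the labels do not give the animals behind each library, so p-values cover the spread between these samples only. The libraries held 20916065 to 22440306 expected counts in AIH libraries (read counts in which a read that fits several features is shared between them), against 17780509 to 24572388 in Control libraries.

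In Treg cells Foxp3 both switches on genes of suppression and holds down genes of effector T cells, and its continued expression keeps the identity of the cell. Helios and Eos are the Ikaros proteins best known from Treg cells. Eos serves Foxp3 as a corepressor partner, and Helios helps to keep Treg cells stable under inflammation. Ikaros and Aiolos are found in many lymphocytes, recruit the NuRD chromatin remodelling complex and other corepressors, and are the targets that thalidomide analogs send to the cereblon ubiquitin ligase. Pegasus is the most distant member of the family.

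DNA that encodes zinc fingers of the family is printed here because it underlies both the name of the family and the way its members are told apart by reads. Each stretch below is 147 bases of coding sequence for a pair of neighbouring fingers, taken from the GENCODE transcripts of GRCm38, with the codons of the cysteines and histidines that hold the zinc ions in capitals. The pairs were picked for the highest base identity to Ikzf1. The identities to Ikzf1 given below are thus the highest among such pairs, not a measure of the whole genes.
Ikzf1: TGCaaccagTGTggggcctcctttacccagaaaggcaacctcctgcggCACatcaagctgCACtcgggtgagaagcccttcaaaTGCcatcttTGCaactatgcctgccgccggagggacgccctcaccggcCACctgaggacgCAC
Ikzf2: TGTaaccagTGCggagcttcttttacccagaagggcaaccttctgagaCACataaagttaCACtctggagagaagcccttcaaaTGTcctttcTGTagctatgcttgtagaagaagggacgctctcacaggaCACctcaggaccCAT
Ikzf3: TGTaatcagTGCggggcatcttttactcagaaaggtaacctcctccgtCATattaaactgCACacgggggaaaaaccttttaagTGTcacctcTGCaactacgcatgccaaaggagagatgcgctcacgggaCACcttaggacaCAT
Ikzf4: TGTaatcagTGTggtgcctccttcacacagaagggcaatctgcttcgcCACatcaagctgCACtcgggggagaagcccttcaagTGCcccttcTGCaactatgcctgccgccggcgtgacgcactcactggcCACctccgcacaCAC
Ikzf5: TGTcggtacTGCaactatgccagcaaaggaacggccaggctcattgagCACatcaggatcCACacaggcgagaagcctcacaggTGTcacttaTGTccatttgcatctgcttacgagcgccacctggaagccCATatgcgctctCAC
Ikzf1 and Ikzf4 were identical at 83.7% of these bases, Ikzf1 and Ikzf2 at 78.2%, Ikzf1 and Ikzf3 at 76.2%, and Ikzf2 and Ikzf3, the least alike of the first 4 genes, at 72.8%. The pair is the second and the third finger in Ikzf1, Ikzf2, Ikzf3 and Ikzf4 but the first and the second in Ikzf5, so fingers of another order are compared there. Ikzf5 stood apart, with 42.2% identity to Ikzf3 and 50.3% to Ikzf4 as its lowest and highest values. The longest run of bases that any pair of the 5 coding sequences shared without a mismatch was 26 bases, between Ikzf1 and Ikzf3. The deposited gene counts of Ikzf1, Ikzf2, Ikzf3, Ikzf4 and Ikzf5 were whole numbers in 6 of 6 libraries (tolerance 1e-06 counts), so they show no sign of reads split between members or with another gene.

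RefSeq lists an upstream and a downstream start of Foxp3. The 250 bases before each, on the plus strand of GRCm38.p6, are shown because the Foxp3 counts of AIH 1 were assigned to another transcript than those of the other libraries, and that transcript begins at the downstream start. Capitals mark TATAAA, the core of the TATA box.
Foxp3 upstream start, chrX:7579426-7579675: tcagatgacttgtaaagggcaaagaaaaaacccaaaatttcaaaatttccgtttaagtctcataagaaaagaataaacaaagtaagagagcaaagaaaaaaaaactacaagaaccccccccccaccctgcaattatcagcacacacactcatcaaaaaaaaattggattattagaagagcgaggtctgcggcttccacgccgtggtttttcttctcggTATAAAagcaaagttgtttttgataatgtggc
Foxp3 downstream start, chrX:7580233-7580482: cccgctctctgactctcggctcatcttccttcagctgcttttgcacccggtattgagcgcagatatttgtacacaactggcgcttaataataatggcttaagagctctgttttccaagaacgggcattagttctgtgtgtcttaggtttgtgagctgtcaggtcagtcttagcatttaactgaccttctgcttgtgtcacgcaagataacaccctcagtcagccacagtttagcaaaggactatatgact
TATAAA lies at −32 from the first start and was not found before the second on either strand, while 12.4% of 32851 such RefSeq windows hold it on either strand. Neither window holds TGGGAA, the core bound by Ikaros proteins, on either strand, which 21.6% of all windows do. The GC content is 37.6% before the upstream start and 46% before the downstream one. Windows for Ikzf1 and Ikzf5 were in the RefSeq table too and held neither motif.

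Markers of Treg cells, and of cells that the sort should leave out, were both present. Each of the 12 Treg identity markers, Foxp3 among them, had counts in every library, and 7 of the 12 had log2 fold changes above 0. Without overlap between the groups, 3 were higher and 1 lower in AIH, beside 8.46% and 8.87% of all genes tested. Their summed level, to which the abundant Tnfrsf4 and Tnfrsf18 gave much, was 5616 to 8615 CPM (counts scaled to equal library size) in AIH and 1875 to 3535 CPM in Control. The 9 T cell markers in the table summed to 7518 to 9320 CPM in AIH and 3686 to 5465 CPM in Control. Cd3g and Cd3d gave much of that sum. The 12 macrophage markers went the other way, with 386 to 2706 CPM in AIH and 3479 to 15599 CPM in Control, and all 12 had counts in every library. The 10 B cell markers summed to 49.7 to 139 CPM in AIH and 204 to 415 CPM in Control. Ms4a1, which encodes the B cell surface protein CD20, was at 0.0533, 0 and 43.0 CPM in AIH 1, AIH 2 and AIH 3, against 35.4, 57.3 and 20.9 CPM in Control 1, Control 2 and Control 3, so the groups overlapped. The 2 CD8 T cell markers summed to 122 to 309 CPM in AIH and 54.2 to 107 CPM in Control, and the 5 endothelial markers to 5.92 to 35.3 CPM in AIH and 71.8 to 216 CPM in Control. Of the CD8 T cell markers, Cd8b1 overlapped between the groups. AIH 1 and Control 3 stood at opposite ends of principal component 1, which held 32.5% of the variance. In such bulk libraries fewer cells of a type and less RNA per cell cannot be told apart.

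All 6 genes passed the filter on low counts and were tested among 11140 genes. The test was edgeR's quasi-likelihood F test, with p-values adjusted over all genes after Benjamini and Hochberg and a threshold of 0.05. No member passed, higher or lower, while 0.0898% of all genes tested did (0.0808% higher and 0.00898% lower in AIH). At an unadjusted p under 0.05 stood 1 member, Foxp3, which was lower, beside 8.27% of all genes (4.42% higher and 3.85% lower). For Foxp3 and Ikzf1 every AIH library lay below every Control library, which held for 8.87% of all genes tested, and for 0 members the reverse, which held for 8.46%. The other 4 genes overlapped between the groups.

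**Figure D1:**
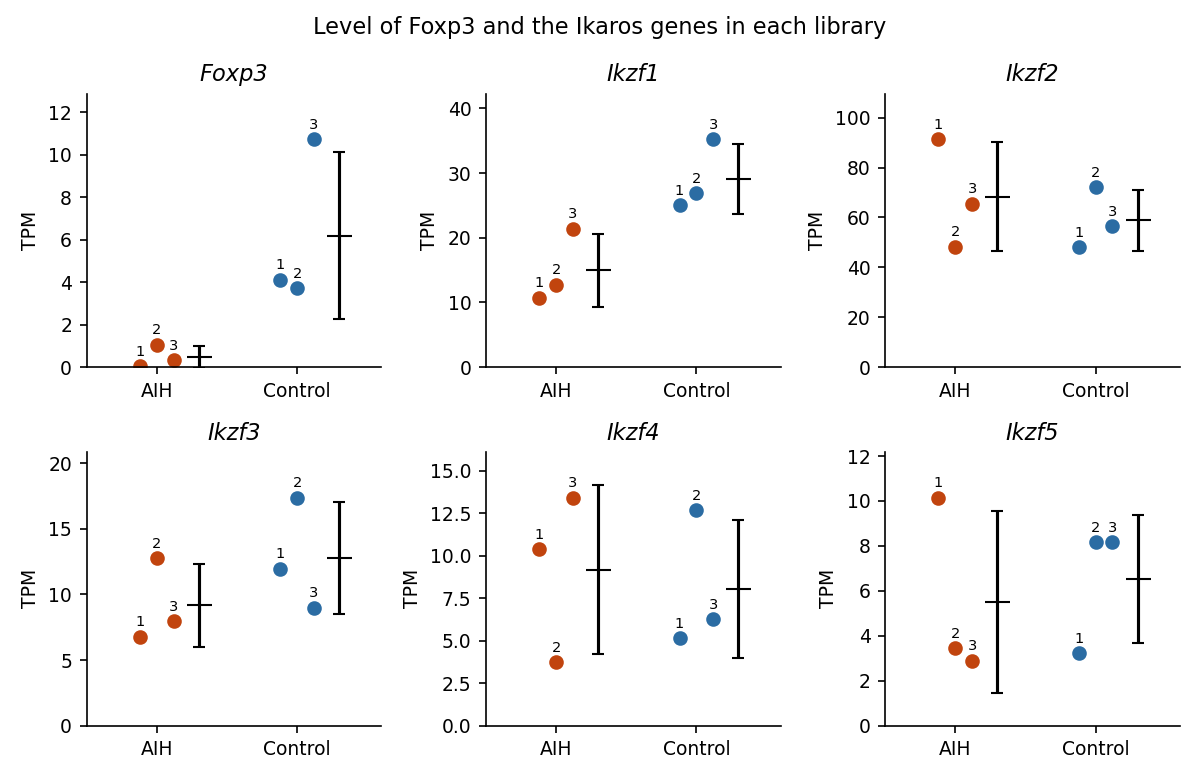
Level in TPM (vertical axes, linear, starting at 0) of each gene in the AIH (left) and Control (right) libraries, numbered by replicate, with the mean and SD as bars. The SD bar of Foxp3 in AIH (0.480 ± 0.514 TPM) reaches below 0 and is not drawn there. AIH libraries lie below Control libraries for Foxp3 and Ikzf1, and the groups overlap for the other 4 genes.

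Levels are compared between genes in TPM, which corrects for transcript length and sums to the same total in each library. Ikzf2 was the highest of the 6 genes in every library. In AIH the order of the mean levels was Ikzf2 (68.4 ± 21.7 TPM), Ikzf1 (14.98 ± 5.66), Ikzf4 (9.17 ± 4.96), Ikzf3 (9.16 ± 3.16), Ikzf5 (5.50 ± 4.04) and Foxp3 (0.480 ± 0.514; SD, n = 3). In Control it was Ikzf2 (58.9 ± 12.2 TPM), Ikzf1 (29.1 ± 5.42), Ikzf3 (12.8 ± 4.26), Ikzf4 (8.03 ± 4.07), Ikzf5 (6.52 ± 2.85) and Foxp3 (6.19 ± 3.94). Ikzf2 and Ikzf1 stood apart from the rest by more than their SDs in Control, and Ikzf2 did so in AIH. Ikzf3, Ikzf4 and Ikzf5 were within their SDs of each other in both groups. Foxp3 was last in both orders. Its level and that of Ikzf5 were within their SDs in Control and apart by more than that in AIH.

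Foxp3, the gene whose reporter was used for the sort, was at 0.05, 1.05 and 0.34 TPM in AIH 1, AIH 2 and AIH 3, against 4.11, 3.72 and 10.73 TPM in Control 1, Control 2 and Control 3. These levels rested on 4.95, 91.48 and 31.50 expected counts in AIH and 418.27, 273.75 and 1002.16 in Control. AIH 1 was the lowest library and Control 3 the highest. A level near 0 is unlike what a sort on the Foxp3 reporter aims at, and its cause was not tested. The directions below are those of the libraries as labelled AIH. Among the genes above 0 TPM in a library, 89.3%, 74.1% and 81.2% lay above Foxp3 in AIH 1, AIH 2 and AIH 3, against 53.7%, 56.8% and 40.9% of them in Control 1, Control 2 and Control 3. The log2 fold change was −3.54 (SE 1.24), with an unadjusted p of 0.0179 and an adjusted p of 0.501 by edgeR. In TPM an exact two-sided permutation test of the group means gave p = 0.1, the smallest that 3 against 3 libraries can give.

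The direction of Foxp3 held in all 16 alternatives tried, with log2 fold changes between −4.65 without AIH 2 and −2.08 with a neighbouring gene's counts added. It passed the threshold in 1 of them, DESeq2's Wald test on the unfiltered table (adjusted p = 0.0335, tried after seeing the data), while the same test on the filtered genes gave an adjusted p of 0.0693 and the highest over the alternatives was 0.888. The macrophage markers also summed to less in every AIH library, with 386, 2096 and 2706 CPM in AIH 1, AIH 2 and AIH 3, against 6465, 3479 and 15599 CPM in Control 1, Control 2 and Control 3. AIH 1, lowest in Foxp3, was lowest in these markers, and Control 3 was highest in both. AIH 2, however, was above AIH 3 in Foxp3 and below it in these markers. Their part in the result was not tested. The endothelial markers, at 5.92, 35.3 and 25.2 CPM in AIH 1, AIH 2 and AIH 3, against 71.8, 74.9 and 216 CPM in Control 1, Control 2 and Control 3, were likewise lower in every AIH library. The T cell, Treg and CD8 T cell markers summed to higher levels in every AIH library than in every Control library. Not every marker did so. Without overlap between the groups, 2 of 9 T cell markers were higher and 1 lower, and 3 of 12 Treg markers higher and 1, Foxp3 itself, lower. Of the 2 CD8 T cell markers 1 was higher, beside 8.46% of all genes tested higher and 8.87% lower. The part of these markers was not tested either.

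The deposited count of Foxp3 was not the gene's alone. It was fractional in all 6 libraries, and in each it added up to a whole number (tolerance 0.01 counts) with the count of its neighbour Ccdc22, which encodes a subunit of an endosomal protein recycling complex. Of the 3519 genes with a fractional count in any library, Ccdc22 was the 1 whose counts did so. The RefSeq annotation of GRCm38.p6 places the ends of both genes over each other on opposite strands, and whether counting used the strand is not given in the sources used here, so reads from the overlap cannot be told apart.

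Foxp3 and Ccdc22 together had 67, 281 and 189 counts in AIH 1, AIH 2 and AIH 3, against 891, 434 and 1305 counts in Control 1, Control 2 and Control 3. Foxp3 was given 7.39%, 32.6% and 16.7% of these in AIH, against 46.9%, 63.1% and 76.8% in Control. Both the sum and the Foxp3 share were therefore lower in every AIH library than in every Control library. Ccdc22 itself had 62.05, 189.52 and 157.50 counts in AIH, against 472.73, 160.25 and 302.84 in Control, so that its AIH 2 value lay above Control 2. Tested as 1 gene, the summed counts had a log2 fold change of −2.08 (SE 0.77), with an unadjusted p of 0.0228 and an adjusted p of 0.518 by the same edgeR test. The difference of the sum does not depend on how the shared reads were split.

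**Figure D2:**
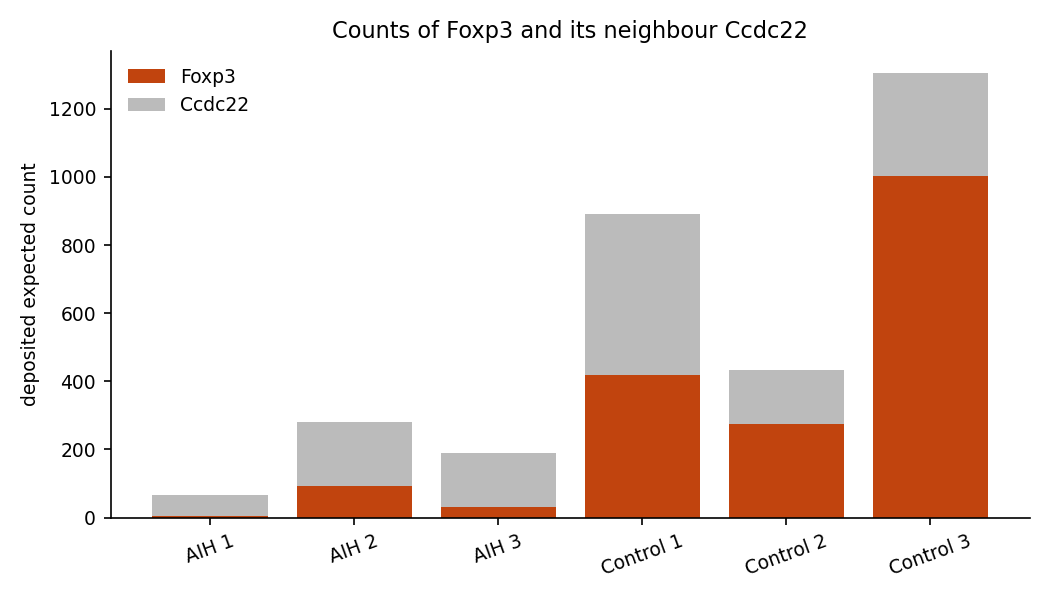
Deposited expected counts (vertical axis, linear) of Foxp3 and of its neighbour Ccdc22, stacked for each library, AIH libraries first. The stacks, from 67 to 281 in AIH and from 434 to 1305 in Control, are whole numbers although their parts are not, and the Foxp3 part is the smaller one in all 3 AIH libraries and in Control 1.

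Of the 3 Foxp3 transcripts, NM_054039.2 carried all of the gene's counts in AIH 2, AIH 3, Control 1 and Control 3 and 97.7% in Control 2, where NM_001199347.1 took the remaining 6.23 counts. AIH 1 differed: its 4.95 counts were all assigned to NM_001199348.1, and NM_054039.2 was listed at 0 there. NM_001199348.1 is matched by GENCODE to a transcript that begins at the downstream start shown above, just after the window without TATAAA. At that depth the assignment is of a single library and a handful of reads, and which start was used cannot be read from it. NM_054039.2 alone passed the filter on low counts. It had a log2 fold change of −3.60 (SE 1.92), with an unadjusted p of 0.104 and an adjusted p of 0.9998 by edgeR. Its AIH libraries all lay below its Control libraries, as in 7.86% of all transcripts tested. The value of 0 in AIH 1 leaves out the 4.95 counts assigned to NM_001199348.1. Transcript usage of Foxp3 could not be tested with 1 transcript.

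Ikzf1, which encodes Ikaros, was at 10.76, 12.78 and 21.41 TPM in AIH 1, AIH 2 and AIH 3, against 25.08, 26.94 and 35.26 TPM in Control 1, Control 2 and Control 3. The groups did not overlap, with AIH 3 the AIH library nearest to Control. In counts scaled for depth the gap between AIH 3, at 123 CPM, and the lowest Control library, at 129.8 CPM, was narrow. A log2 fold change of −0.72 (SE 0.36) came with an unadjusted p of 0.0727 and an adjusted p of 0.666 by edgeR. The exact permutation p of the TPM means, 14.98 in AIH and 29.1 in Control, was 0.1, again the smallest possible. Over the alternatives it ran from −1.10 (AIH 3 left out) to −0.47 (AIH 1 and Control 3 both left out). Ikaros is made in most leukocytes, and the macrophage and B cell markers were lower in the same libraries: the B cell markers summed to 78.7, 49.7 and 139 CPM in AIH, against 284, 415 and 204 CPM in Control. Their part in the Ikzf1 result was not tested.

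Ikzf1 had the most transcripts, 26, of which 10 had counts in all 6 libraries and none dominated. XM_011243718.2, the highest on average, held 13.2%, 16.4% and 13.2% of the gene's counts in AIH and 12.9%, 14.4% and 13.6% in Control. That share thus varied little between libraries. Of the 16 transcripts that passed the filter, 15 had log2 fold changes below 0 and the median was −0.84, and in 4 every AIH library lay below every Control library, which 7.86% of all 18000 transcripts tested did. These transcripts divide the counts of the same gene, itself lower in every AIH library, so they are not separate observations. None of the transcripts tested, members or not, passed an adjusted p under 0.05 by edgeR (0% called, 4.16% at an unadjusted p under 0.05). For Ikzf1 the test of transcript usage gave an unadjusted p of 0.994.

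Ikzf2, which encodes Helios, was at 91.38, 48.26 and 65.42 TPM in AIH 1, AIH 2 and AIH 3, against 48.12, 72.14 and 56.40 TPM in Control 1, Control 2 and Control 3. AIH 1 was the highest library and AIH 2 nearly the lowest, so the groups overlapped across most of their range. The log2 fold change was 0.49 (SE 0.33), with an adjusted p of 0.774 by edgeR, and an exact permutation test of the TPM means gave p = 0.6. It was 0.13 without AIH 1 and 0.73 without AIH 2 (unadjusted p = 0.0320, adjusted p = 0.544, edgeR). Between 8.73% and 15.4% of the genes detected in an AIH library lay above Ikzf2, against 9.86% and 13.5% at the ends of the Control range.

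Its transcript NM_011770.4 held 92.3%, 96.2% and 98.6% of the Ikzf2 counts in AIH, against 95.1%, 88.0% and 99.95% in Control. The remaining 7 listed transcripts therefore had at most a small part in any library. XM_030253878.1 reached 5.03% in AIH 1 and XM_006495965.3 8.32% in Control 2, and both were at 0 in AIH 3 and Control 3. The log2 fold change of NM_011770.4 was 0.44 (SE 0.30), close to that of the gene.

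Ikzf4, which encodes Eos, was at 10.39, 3.72 and 13.41 TPM in AIH, against 5.13, 12.68 and 6.27 TPM in Control. AIH 2 was the lowest of all 6 libraries and AIH 3 the highest. Its log2 fold change of 0.49 (SE 0.61) had an adjusted p of 0.915 by edgeR, and it ranged from 0.11 without AIH 1 and Control 3 to 0.99 without Control 2. NM_001358537.1 was its leading transcript on average, with 64.5%, 41.0% and 80.7% of the counts in AIH, against 76.7%, 82.2% and 100% in Control. In AIH 2 another transcript, NM_011772.3, held 49.4%, and it was listed at 0 in the other 5 libraries. NM_001358537.1 itself had a log2 fold change of 0.12 (SE 0.84).

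Ikzf3, which encodes Aiolos, was at 6.79, 12.75 and 7.94 TPM in AIH, against 11.97, 17.37 and 8.97 TPM in Control. Control 2 was the highest library and AIH 1 the lowest, with overlap between the groups. Aiolos had a log2 fold change of −0.33 (SE 0.42) with an adjusted p of 0.915 by the same edgeR test, and it moved to −0.13 without AIH 1, −0.11 without Control 2 and −0.57 without AIH 2. Its 4 transcripts changed places from library to library. XM_006533204.4 held 82.6%, 16.9% and 44.4% of the counts in AIH, against 61.0%, 46.9% and 35.4% in Control. In AIH 2 NM_011771.1 led with 45.4%, while in AIH 3 and Control 3 XM_006533205.4 led with 50.03% and 56.9%.

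Ikzf5, which encodes Pegasus, was at 10.15, 3.45 and 2.89 TPM in AIH, against 3.23, 8.17 and 8.16 TPM in Control. Each group had high and low libraries, with AIH 1 the highest of all and AIH 3 the lowest. Its log2 fold change was 0.07 (SE 0.72), with an adjusted p of 0.993 by edgeR, and its sign changed in 7 of 15 alternatives, −0.86 without AIH 1 among them. NM_175115.4 held 97.9% and 100% of the counts in AIH 1 and AIH 3 but 43.8% in AIH 2, and 96.7% and 97.4% in Control 2 and Control 3 but 58.5% in Control 1. The libraries with the even split were thus 1 in each group.

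**Figure D3:**
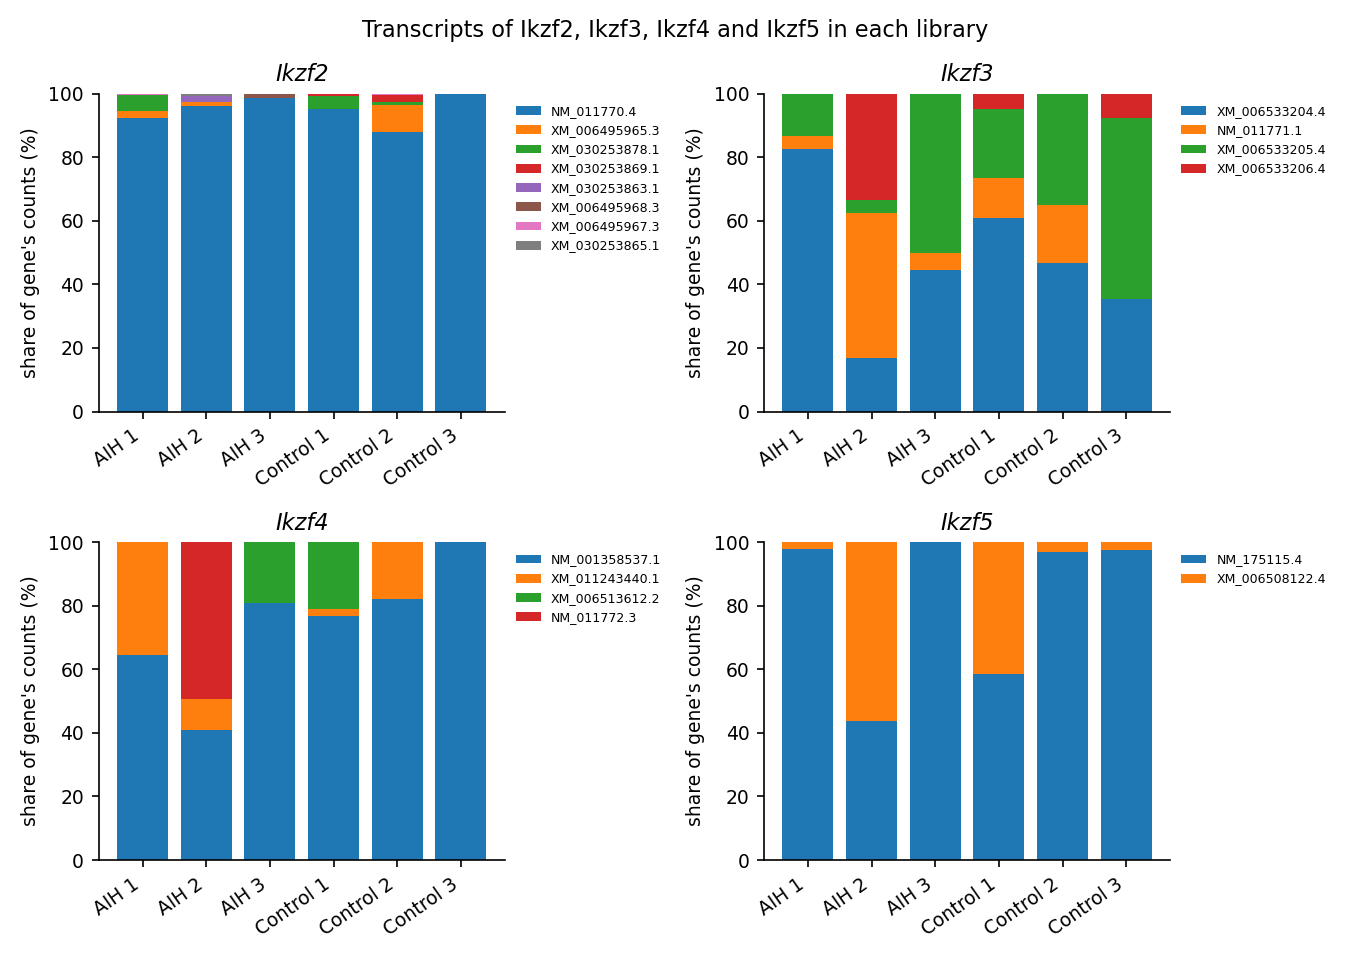
Share of each gene's deposited counts (vertical axes, 0 to 100%) assigned to its transcripts in each library, AIH libraries left of Control libraries, for Ikzf2, Ikzf3, Ikzf4 and Ikzf5. NM_011770.4 holds at least 88.0% of Ikzf2 in every library, while the leading transcripts of Ikzf3, Ikzf4 and Ikzf5 vary between libraries of the same group.

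A test of whether the mix of transcripts differed between AIH and Control gave unadjusted p-values of 0.988 for Ikzf2, 0.887 for Ikzf3, 0.936 for Ikzf4 and 0.984 for Ikzf5. None of the 3779 genes in that test passed an adjusted p under 0.05 (0% called, edgeR's diffSpliceDGE), and 2.75% had an unadjusted p under 0.05. The spread within a group was wide for the minor transcripts: XM_006533206.4 of Ikzf3, for example, held 33.5% in AIH 2 and was at 0 in AIH 1 and AIH 3.

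**Figure D4:**
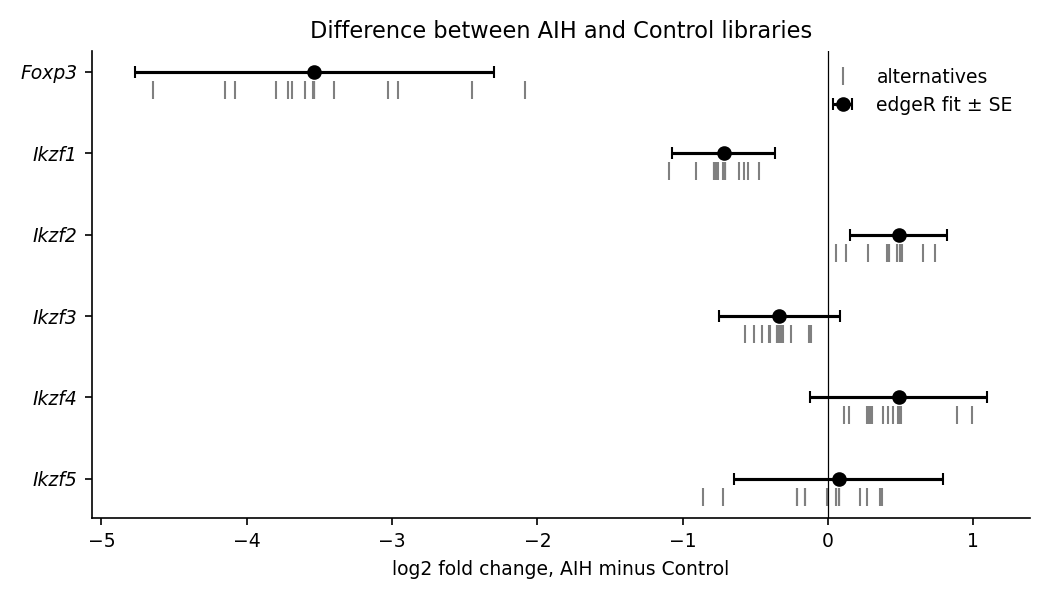
Log2 fold change of each gene, AIH minus Control (horizontal axis), as a point with its SE from edgeR and as grey ticks under each alternative setting. The ticks of Foxp3 run from −4.65 to −2.08 and those of Ikzf1 from −1.10 to −0.47, while those of Ikzf5 lie on both sides of 0.

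The make-up of the Ikaros family was compared as each gene's share of the 5 genes' summed TPM. The sum itself was 129, 81.0 and 111 TPM in AIH 1, AIH 2 and AIH 3, against 93.5, 137 and 115 TPM in Control 1, Control 2 and Control 3, so the groups overlapped. Within the sum Ikzf2 was first and Ikzf1 second in 6 of 6 libraries. The share of Ikzf2 was 70.6%, 59.6% and 58.9% in AIH, against 51.4%, 52.5% and 49.02% in Control. The share of Ikzf1 was 8.31%, 15.8% and 19.3% in AIH, against 26.8%, 19.6% and 30.6% in Control. For both genes the groups were apart, with AIH 3 and Control 2 the closest pair for Ikzf1.

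The Ikzf2 share averaged 63.0 ± 6.55% in AIH and 51.0 ± 1.80% in Control (SD, n = 3 each), 12.03 percentage points more in AIH, and the Ikzf1 share 14.5 ± 5.60% in AIH and 25.7 ± 5.60% in Control, a difference of −11.2 points. An exact two-sided permutation test over libraries gave p = 0.1 for each, the smallest that this design allows, so it could not pass 0.05. The 5 shares add up to the whole, so a higher share of Ikzf2 and a lower share of Ikzf1 are not separate observations. Without AIH 1, the library with the highest Ikzf2 share, the difference for Ikzf2 was 8.25 points. Ikzf3 averaged 9.38% in AIH and 11.1% in Control, Ikzf4 8.23% in AIH and 6.72% in Control, and Ikzf5 4.90% in AIH and 5.50% in Control, with overlap between the groups in all 3 genes.

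**Figure D5:**
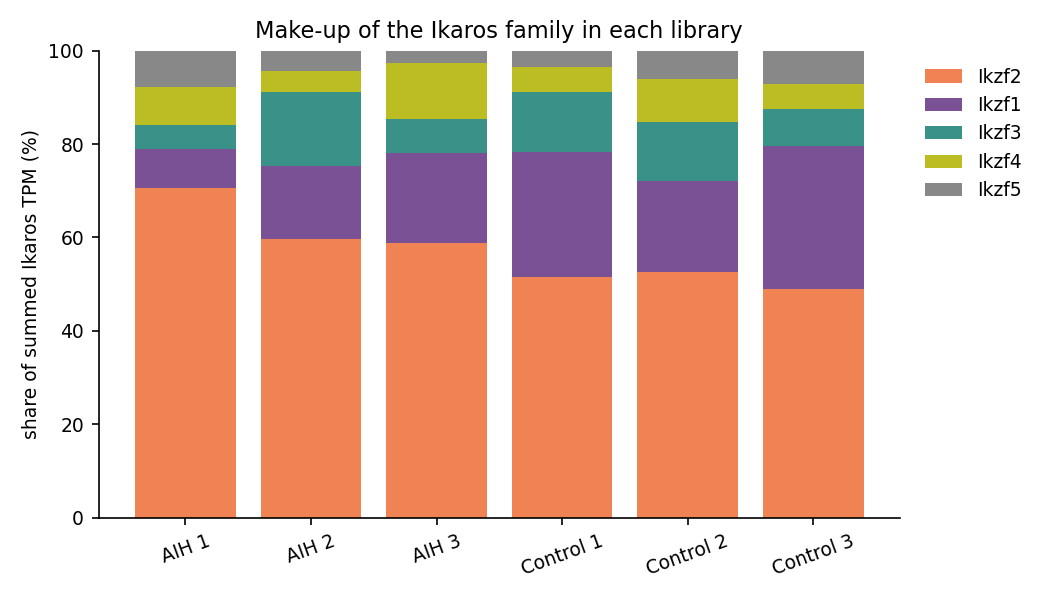
Share of each Ikaros gene in the summed TPM of the 5 genes (vertical axis, 0 to 100%) in each library, AIH libraries left of Control libraries. Ikzf2 takes 58.9 to 70.6% in AIH and 49.02 to 52.5% in Control, and Ikzf1 8.31 to 19.3% in AIH and 19.6 to 30.6% in Control.

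Set against Helios, Foxp3 stood at 0.0547, 2.18 and 0.520 TPM per 100 TPM of Ikzf2 in AIH 1, AIH 2 and AIH 3, against 8.54, 5.16 and 19.02 TPM in Control 1, Control 2 and Control 3. Per 100 TPM of Ikzf1 it stood at 0.465, 8.22 and 1.59 in AIH, against 16.4, 13.8 and 30.4 in Control. The groups were thus apart on either scale, which does not depend on library size. Both ratios reuse the Foxp3 levels given above, so they are not separate observations. They rest on 4.95 Foxp3 counts in AIH 1 and on the split of reads with Ccdc22.

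The genes whose log2 CPM ran most nearly in parallel to each member over the 6 libraries are given as a description, with Pearson's r among 7715 genes with at least 10 CPM on average, all points sharing the same libraries and their depth. For Foxp3 they were Ctbp1 (r = 0.998), Aamp (0.996) and Enpp4 (0.995). For Ikzf1 they were Zeb2 (0.995), Frat2 (0.994) and Kcnab2 (0.992), and for Ikzf2 Ndufa3 (0.989), Luc7l2 (0.989) and Lin54 (0.982). The nearest to Ikzf3 were Gab3 (0.987), Pepd (0.983) and Cdc34 (0.981), those to Ikzf4 Cul3 (0.990), Sqle (0.984) and Gvin1 (0.981), and those to Ikzf5 Zbtb33 (0.980), Fam122b (0.979) and Nfat5 (0.979). No gene was among the 3 nearest of more than 1 member.

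Around Foxp3, the transcription factors, receptors and chromatin enzymes that regulate its gene were mixed in direction: of 26 listed and tested, 1 was called higher and 0 lower (0.0808% and 0.00898% of all genes tested), 3 were higher and 3 lower without overlap between the groups (8.46% and 8.87% of all genes), and the median log2 fold change was 0.17, beside −0.04 over all genes tested. The call was Nr4a2, an orphan nuclear receptor of T cell activation that can bind the Foxp3 gene, at 33.1, 29.5 and 40.9 CPM in AIH, against 0.201, 0.0516 and 0.0765 CPM in Control (adjusted p = 0.0448, edgeR). It was far above Control in every AIH library, but the call did not hold with any 1 of the 6 libraries left out (adjusted p between 0.102 without Control 1 and 0.187 without AIH 3). Its relative Nr4a3 was at 88.7, 30.3 and 35.8 CPM in AIH, against 0.685, 0 and 0 CPM in Control, and did not pass (adjusted p = 0.289). Satb1, a genome organiser needed early for the Foxp3 enhancers, was at 33.7, 23.7 and 44.7 CPM in AIH, against 116, 73.5 and 201 CPM in Control. Bach2, a repressor that restrains effector differentiation, was at 3.41, 7.71 and 3.60 CPM in AIH, against 25.4, 30.6 and 77.6 CPM in Control. Neither of these lower genes passed, with an adjusted p of 0.319 for each by edgeR.

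Of the 20 genes for protein partners and modifiers of Foxp3, all tested, 0 were called in either direction by edgeR (2 at an unadjusted p under 0.05, both lower, beside 3.85% of all genes lower), 7 had a positive log2 fold change and the median was −0.34. Tcf7, which encodes the T cell factor TCF-1, was at 52.6, 22.9 and 59.1 CPM in AIH, against 125, 94.96 and 119 CPM in Control. Ctbp1, a corepressor that Eos brings to Foxp3 and that stands in the corepressor list too, was at 16.1, 38.9 and 28.3 CPM in AIH, against 70.6, 61.9 and 99.1 CPM in Control. These 2 were the members at an unadjusted p under 0.05, with log2 fold changes of −1.33 (SE 0.43) and −1.48 (SE 0.48) and an adjusted p of 0.474 each by edgeR. Irf4, a partner in effector Treg cells, was at 22.3, 12.5 and 48.6 CPM in AIH, against 27.2, 11.98 and 0.0382 CPM in Control. The groups overlapped for Irf4.

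Among 20 genes that Foxp3 is known to activate, all tested, 0 were called in either direction by edgeR (5 at an unadjusted p under 0.05, all higher, beside 4.42% of all genes higher), in 6 every AIH library lay above every Control library and in 0 below (8.46% and 8.87% of all genes), and 13 had log2 fold changes above 0, the median being 0.44. Tnfrsf4, which encodes the costimulatory receptor OX40, was at 1406, 2309 and 1524 CPM in AIH, against 448, 291 and 123 CPM in Control (log2 fold change 2.60, SE 0.45, adjusted p = 0.148, edgeR). Il10, the gene of a suppressive cytokine, was at 56.4, 186 and 33.7 CPM in AIH, against 7.54, 3.30 and 0 CPM in Control. In both genes the groups were apart. At the other end Gpr83, an orphan receptor whose gene is a classic Foxp3 target, was at 2.83, 0.227 and 13.6 CPM in AIH, against 41.3, 8.78 and 57.4 CPM in Control, and Plagl1 was at 0, 0.953 and 0.731 CPM in AIH, against 0, 0 and 7.49 CPM in Control. Both overlapped between the groups. The T cell markers summed to higher levels in AIH too, as given above. Of the 9 tested, 2 were higher and 1, Thy1, was lower without overlap between the groups (8.46% and 8.87% of all genes). The part of the T cell markers in this list was not tested.

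Among genes that Foxp3 is known to repress, 11 of 14 passed the filter, 0 were called by edgeR (at an unadjusted p under 0.05, 2 higher and 3 lower, beside 4.42% and 3.85% of all genes), and 5 had log2 fold changes above 0, the median being −0.37. Ifng, the interferon gamma gene, was at 74.3, 27.8 and 40.2 CPM in AIH, against 4.47, 6.25 and 10.1 CPM in Control. Ptpn22, a phosphatase gene that dampens T cell receptor signals, was at 190, 247 and 197 CPM in AIH, against 97.0, 121 and 130 CPM in Control (log2 fold change 0.87, SE 0.29, adjusted p = 0.476, edgeR). Both were higher in every AIH library, as 8.46% of all genes were. Lower in every AIH library, as 8.87% of all genes were, stood 4 genes, among them Satb1 and Tcf7, with the values given above, and Dapl1, at 0, 5.04 and 1.02 CPM in AIH, against 13.6, 6.87 and 27.9 CPM in Control. The list thus held genes of both directions.

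For the Ikaros proteins, of 18 tested genes of NuRD and other corepressor subunits 0 were called by edgeR. At an unadjusted p under 0.05 stood 1, Ctbp1, which was lower, beside 3.85% of all genes lower. Without overlap 3 were lower and 0 higher (8.87% and 8.46% of all genes), and the median log2 fold change was −0.47. Rbbp4, a histone-binding NuRD subunit, was at 124, 281 and 153 CPM in AIH, against 118, 149 and 78.1 CPM in Control, and Mbd3, the subunit related to methyl-DNA binding proteins, at 32.1, 11.8 and 25.6 CPM in AIH, against 13.1, 5.47 and 27.1 CPM in Control. Ctbp2 was at 8.80, 0.0454 and 0.536 CPM in AIH, against 18.3, 2.74 and 12.5 CPM in Control. The groups overlapped in these 3 genes.

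The cereblon ligase list has 5 genes, all tested, of which 0 were called by edgeR. At an unadjusted p under 0.05 stood 2, both higher, beside 4.42% of all genes higher and 3.85% lower. Crbn, cereblon itself, was at 240.0, 467 and 280.3 CPM in AIH, against 195, 179 and 151 CPM in Control, with a log2 fold change of 0.91 (SE 0.32) and an adjusted p of 0.501. Rbx1, the RING subunit of the ligase, was at 678, 545 and 676 CPM in AIH, against 461, 456 and 378 CPM in Control (log2 fold change 0.55, SE 0.24, adjusted p = 0.598). Ddb1, the adaptor that holds cereblon, went the other way, at 29.6, 38.3 and 41.0 CPM in AIH, against 55.8, 77.4 and 64.3 CPM in Control (log2 fold change −0.86, SE 0.42, adjusted p = 0.661, all by edgeR). The groups did not overlap in any of these 3 genes, which 17.3% of all genes tested showed in either direction. Cul4b, a scaffold of the ligase, was at 62.4, 40.3 and 86.5 CPM in AIH, against 37.2, 49.9 and 89.4 CPM in Control. Of the other Foxp genes, Foxp1, which can pair with Foxp3, was at 114, 40.4 and 83.2 CPM in AIH, against 107, 139 and 109 CPM in Control, and Foxp4 at 0.640, 0.681 and 6.33 CPM in AIH, against 1.57, 3.36 and 3.02 CPM in Control. Both overlapped between the groups, with log2 fold changes of −0.58 (SE 0.42) and −0.05 (SE 1.57).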

How the data were processed

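Cells sorted from mouse liver for a Foxp3 reporter were sequenced in 3 libraries labelled AIH and 3 labelled Control. The authors deposited a gene table and a transcript table. The deposited columns are named read counts per the file headers, and were treated here like expected counts because part of the values were not whole. The TPM values, per the file headers, correct for length. The FPKM values deposited by the authors, corrected for length and depth, and the signal named as normalized counts per the file headers, made by the authors with a factor per library, were not used. The submitters' processing notes name GRCm39, mm39, STAR, featureCounts and FastQC but no versions. Which program shared the reads is not given in the sources used here.

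For the tests in edgeR 4.0.16 (R 4.3.3), expected counts were rounded. Settings were TMM scaling, filterByExpr (minimum count 10 and minimum total 15, by group), the group as the single term of the quasi-likelihood fit, and Benjamini-Hochberg adjustment over all genes or transcripts tested at 0.05. CPM use TMM library sizes. Log2 fold changes are given as AIH minus Control. SE divides the size of the log2 fold change by the root of the F statistic and is rough near 0. Transcript usage was tested with diffSpliceDGE and Simes p-values. The scripts were tested on simulated data with less spread than these libraries, which does not measure the power of the tests here. Shares and TPM means were compared with exact permutation tests over libraries. The nearest genes are the 3 with the highest correlation of log2 CPM (prior count 2). Examples of a list are its 2 highest and 2 lowest log2 fold changes, and some of these and of the marker values are not reported here. Members and gene lists were chosen with earlier results of these data known. Alternatives were other scalings and filters, DESeq2 1.42.0, limma-voom (limma 3.58.1), the replicate number as a block and libraries left out. The unfiltered DESeq2 test and the sum of Foxp3 and Ccdc22 were added after seeing the data. Promoter windows come from RefSeq, whose build GRCm38.p6 is not that of the files.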

Additional observations from a re-analysis of the deposited data

How the results depend on the processing

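With 3 libraries a group the biological coefficient of variation was 0.948, which limits the tests to large differences, and Foxp3 rests on 4.95 to 91.48 counts in AIH. Scaling by library totals moved the median log2 fold change of all genes tested to −0.23, against −0.04 with TMM, and the members moved with it. Foxp3 and Ikzf1 stayed negative, and Ikzf2 and Ikzf4 positive, in every alternative tried. Ikzf3 stayed negative in all 15.

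The count of genes called was 10 with TMM and edgeR, 3 with library totals, 32 with no filter, 180 by DESeq2, 337 by DESeq2 on the unfiltered table, 21 by limma-voom, 0 with the replicate block, 0 to 1 with any 1 library left out and 1 without AIH 1 and Control 3 together. The count of members called was 0 in these except the unfiltered DESeq2 test, where it was 1, Foxp3, with a log2 fold change of −3.54. For transcripts 0 were called by edgeR, 24 with no filter, 380 by DESeq2 and 198 by DESeq2 on the unfiltered table, with 0 members among them. Ikzf5, at 0.07, turned to −0.16 with library totals, −0.0073 with the filter of 10 CPM, −0.16 by limma-voom, −0.22 with the replicate block and −0.72 without AIH 1 and Control 3. With any 1 library left out it ranged from −0.86 to 0.37. Its transcript NM_175115.4, at −0.05, turned to 0.012 with no filter and ranged from −1.20 to 0.40 with 1 library left out. NM_001358537.1 of Ikzf4, at 0.12, turned to −0.045 with library totals, −0.20 by limma-voom, −0.058 with the replicate block and −0.061 without AIH 1 and Control 3, and ranged from −0.46 to 0.62 with 1 library left out. With 1 library left out the AIH minus Control difference in share ranged from −4.89 to 0.37 points for Ikzf3, −0.41 to 3.33 for Ikzf4 and −2.07 to 0.55 for Ikzf5. Nr4a2 was not called with library totals (log2 fold change 8.04), by limma-voom (8.18), with the replicate block (8.35), without AIH 1 and Control 3 together (8.03) or with any 1 library left out (7.90 to 8.93). The causes of these changes were not tested.

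The labels do not say whether the replicate numbers pair the libraries. Same-numbered libraries deviated together with r of 0.0133, 0.00139 and 0.191, and differently numbered ones with r from −0.122 to 0.108. The pair of AIH 3 and Control 3 was thus the highest of all, and the other same-numbered pairs lay within the range of the differently numbered ones. With the replicate block the log2 fold change of Foxp3 was −4.15 and its adjusted p 0.603 by edgeR, and 0 members were called.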
